A study of Homo sapiens with 8 samples.

Results

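*TERT* and its neighbours at the tip of the short arm of chromosome 5 were examined for DNA methylation in neuroblastoma (NB) cell lines. The neighbours were *SLC6A19*, *SLC6A18*, *CLPTM1L*, *SLC6A3* and *LPCAT1*. These 6 genes were taken as the locus, out of 64486 genes of GENCODE release 44 in GRCh37 coordinates, and were chosen by their position. Methylation was read from MBD-seq, in which sheared DNA is captured with the part of MBD2 that binds methylated CpG, and regions rich in the captured fragments are called as peaks. Each of 8 NB cell lines, established cultures of tumor cells, was profiled as 1 sample. IMR-32, N206, CHP-902R and LA-N-2 have *MYCN* amplification (MNA). The *MYCN* single copy lines are SJNB-1, CLB-GA, SK-N-AS and SH-SY5Y. The lines of a group serve as its replicates, and the p-values measure the spread between these cultures only.

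*TERT* encodes the catalytic subunit of telomerase, the enzyme that adds telomere repeats to chromosome ends with the RNA subunit *TERC* as its template. It is silent in most differentiated cells and active in many tumors, and in NB both *MYCN* amplification and rearrangements near the gene are known to go with its activation. Methylation of CpG-rich DNA over a start site usually goes with silencing, whereas methylation within a gene body is common at transcribed genes. A stretch just upstream of the *TERT* start site is known to be methylated in many cancers with active telomerase. Of the neighbours, *SLC6A19* and *SLC6A18* belong to the sodium-dependent amino acid transporters of kidney and gut, and *SLC6A3* encodes the dopamine transporter. *CLPTM1L* encodes a membrane protein linked to survival after DNA damage, and *LPCAT1* an enzyme that rebuilds phosphatidylcholine of membranes and lung surfactant.

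On GRCh37 chromosome 5, *SLC6A19* (1201710 to 1225226) and *SLC6A18* (1225496 to 1246304) lie on the plus strand. *TERT* (1253262 to 1295183), *CLPTM1L* (1317867 to 1345214), *SLC6A3* (1392909 to 1445555) and *LPCAT1* (1456595 to 1524077) lie on the minus strand. Positions below count from the main transcriptional start site (TSS) of *TERT* at 1295183, with positive distances running into the gene. A promoter window ran from 1500 bp upstream to 1000 bp downstream of a TSS, and a promoter peak is any peak touching such a window by at least 1 bp. Every annotated TSS of a gene was used, from 1 for *SLC6A19* and 6 for *TERT* to 16 for *CLPTM1L*, and a gene with more TSS has more windows to touch.

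Sequences at *TERT* and *LPCAT1* show the DNA on which the peaks turn, in lower case from 5′ to 3′ on the minus strand with every CpG in capitals. The first is the 300 bp just upstream of the *TERT* TSS, chr5:1295184-1295483, where no line had a peak. The second, chr5:1293988-1294287, lies wholly in exon 2 of *TERT* and was fully covered by peaks in 4 lines. The third, chr5:1260342-1260641, holds 53 bases of exon 12 of *TERT* and the start of intron 12, and was also fully covered in 4 lines. The fourth, chr5:1524823-1525122, lies 748 to 1047 bp upstream of the main *LPCAT1* TSS and was fully covered in 7 lines.
TERT promoter: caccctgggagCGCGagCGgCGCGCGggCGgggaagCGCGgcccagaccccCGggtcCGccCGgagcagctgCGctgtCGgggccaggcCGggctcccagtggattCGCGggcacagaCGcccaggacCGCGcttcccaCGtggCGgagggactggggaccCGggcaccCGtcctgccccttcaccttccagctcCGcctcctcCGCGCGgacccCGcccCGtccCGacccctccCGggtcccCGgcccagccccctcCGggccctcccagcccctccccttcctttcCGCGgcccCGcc
TERT exon 2: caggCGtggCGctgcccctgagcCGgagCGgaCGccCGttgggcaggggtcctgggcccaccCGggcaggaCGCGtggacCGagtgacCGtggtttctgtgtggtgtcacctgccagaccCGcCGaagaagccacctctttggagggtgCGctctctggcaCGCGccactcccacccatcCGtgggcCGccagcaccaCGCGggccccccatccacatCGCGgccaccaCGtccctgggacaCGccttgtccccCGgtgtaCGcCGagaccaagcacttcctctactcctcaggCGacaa
TERT exon 12 and intron 12: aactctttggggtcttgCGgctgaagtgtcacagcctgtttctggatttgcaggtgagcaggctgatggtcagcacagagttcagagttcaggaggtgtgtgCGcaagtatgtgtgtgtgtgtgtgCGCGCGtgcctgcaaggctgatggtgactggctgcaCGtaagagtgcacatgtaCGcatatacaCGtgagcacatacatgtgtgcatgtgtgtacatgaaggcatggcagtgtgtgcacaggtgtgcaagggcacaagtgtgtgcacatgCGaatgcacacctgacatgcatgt
LPCAT1 upstream: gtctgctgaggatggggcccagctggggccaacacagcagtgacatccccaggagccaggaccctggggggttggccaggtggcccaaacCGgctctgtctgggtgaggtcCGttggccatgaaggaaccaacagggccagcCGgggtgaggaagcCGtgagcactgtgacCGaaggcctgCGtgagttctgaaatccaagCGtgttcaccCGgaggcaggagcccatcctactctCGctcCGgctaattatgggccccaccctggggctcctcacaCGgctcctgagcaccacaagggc

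The *TERT* promoter stretch holds 37 CpG in 300 bp (79.7% GC), the exon 2 stretch 28 CpG (70% GC), the exon 12 stretch 9 CpG (53.0% GC) and the *LPCAT1* stretch 11 CpG (64.7% GC). The DNA without a peak was therefore the richest in CpG of these. The letters CACGTG, an E-box to which MYC proteins can bind and which reads the same on both strands, occur once in the *TERT* promoter stretch, 163 to 158 bp upstream of the TSS, and once in the exon 12 stretch, which was covered in 4 lines. The same letters occur in the 300 bp upstream of 1783 of 20092 protein-coding genes (8.87%), and in none of the other 5 members.

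The lists held 70816 to 112412 peaks per line and covered 1.4% to 2.15% of the genome. Each peak has a score that rises as its p-value falls, with a lowest value of 50 in every list, which stands for the calling threshold of 1e-05. The lists hold no read counts, so depth per line is unknown and a missing peak shows only that none was called. LA-N-2 stood apart on chromosome 5, with 8876 peaks there against 3512 to 5696 in the other lines. Without LA-N-2, the difference between the groups in *TERT* body cover, described below, was 4.77 percentage points in place of 3.98, and the *TERT* body exceeded the genome by 5.70 points in place of 5.59. Copy number of 5p15 is not part of the lists, and more DNA copies cannot be told apart from more methylation per copy. Within 1 Mb of *MYCN*, peaks covered 8.68% to 19.8% of the DNA in MNA lines and 1.87% to 4.76% in single copy lines.

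Across the locus, 107 peaks touched a member, 99 of them in a gene body and 72 over an exon. Their median score was 71.0 and their median width 974 bp, and 28 of them (26.2%) had a score of at least 100. In the whole lists, 11.5% to 22.8% of the peaks of a line had such a score. The median score of a list was 65.6 to 75.5 and the mean width 514 to 646 bp. Of the 99 peaks in gene bodies, *SLC6A3* held 24, *SLC6A19* and *TERT* 19 each, *LPCAT1* 15, *CLPTM1L* 12 and *SLC6A18* 10. The genes differ in length, from 20809 bp (*SLC6A18*) to 67483 bp (*LPCAT1*). As a share of the gene body, mean cover was lowest for *SLC6A3* (4.11%) and highest for *SLC6A19* (11.1%). The body peaks of *SLC6A19* had a median score of 116.89 and 13 peaks of at least 100, whereas those of *TERT* had a median of 68.4 and 2 such peaks. Scores of different lines also depend on depth, and are set side by side as a description only. In the locus map, peaks are scattered along the genes of all lines and leave the *TERT* start site free.

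**Figure D1:**
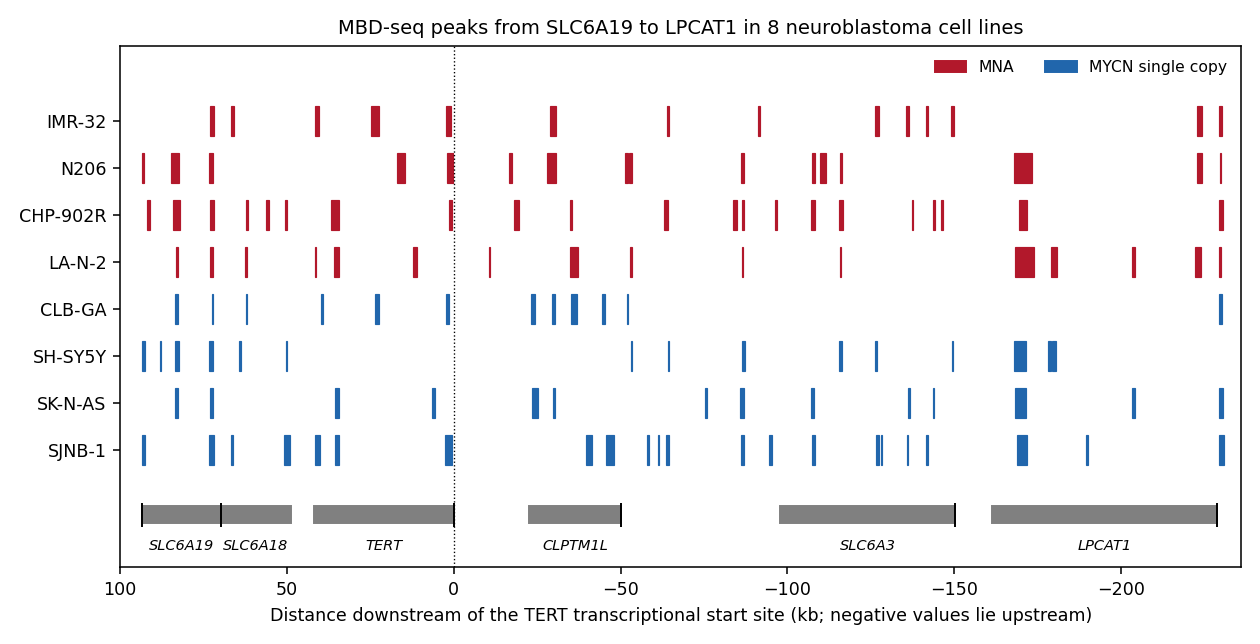
Position of every MBD-seq peak between *SLC6A19* and *LPCAT1* in the 8 lines (rows, MNA in red and *MYCN* single copy in blue) against the distance from the *TERT* TSS in kb, with the gene bodies below and a tick at each main TSS. No peak lies on the *TERT* TSS (dotted line), the last exon of *SLC6A19* near 72 kb has a peak in all 8 lines, and the DNA upstream of *LPCAT1* near −230 kb has one in 7 lines.

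No line had a peak over the *TERT* TSS or anywhere from 2000 bp upstream to 249 bp downstream of it. This DNA reached 13.6 CpG per 100 bp and, in the 500 bp upstream, a GC content of 76.6%. Downstream, the nearest peak began 375 bp from the TSS in N206, 421 bp in CHP-902R, 428 bp in SJNB-1 and 764 bp in IMR-32. The corresponding distances were 1569 bp in CLB-GA, 5682 bp in SK-N-AS, 11061 bp in LA-N-2 and 50051 bp in SH-SY5Y. The first 4 lines, 3 MNA and 1 single copy, thus had a peak starting inside the promoter window, and the other 4 did not. Upstream, the nearest peak lay between 10467 bp (LA-N-2) and 53021 bp (SH-SY5Y) away.

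These first peaks lay over exon 2 of *TERT*, a long coding exon at chr5:1293428-1294781 with 116 CpG in 1354 bp. Peaks covered 100% of exon 2 in N206, 98.1% in SJNB-1, 73.3% in IMR-32 and 67.0% in CHP-902R. Coverage was 13.8% in CLB-GA, and LA-N-2, SH-SY5Y and SK-N-AS had no peak on this exon. Both *MYCN* groups held lines with and without exon 2 coverage. The 4 lines with high coverage shared 564 bp, from 764 to 1327 bp downstream of the TSS, which contain the exon 2 stretch printed above. The scores of the 5 peaks ran from 62.99 (IMR-32) to 90.82 (CLB-GA), at the 32.7 and 72.5 percentile of their lists. The plot of the *TERT* start shows that GC content stays above 70% for the first 1000 bp downstream, on both sides of the point where the peaks begin.

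**Figure D2:**
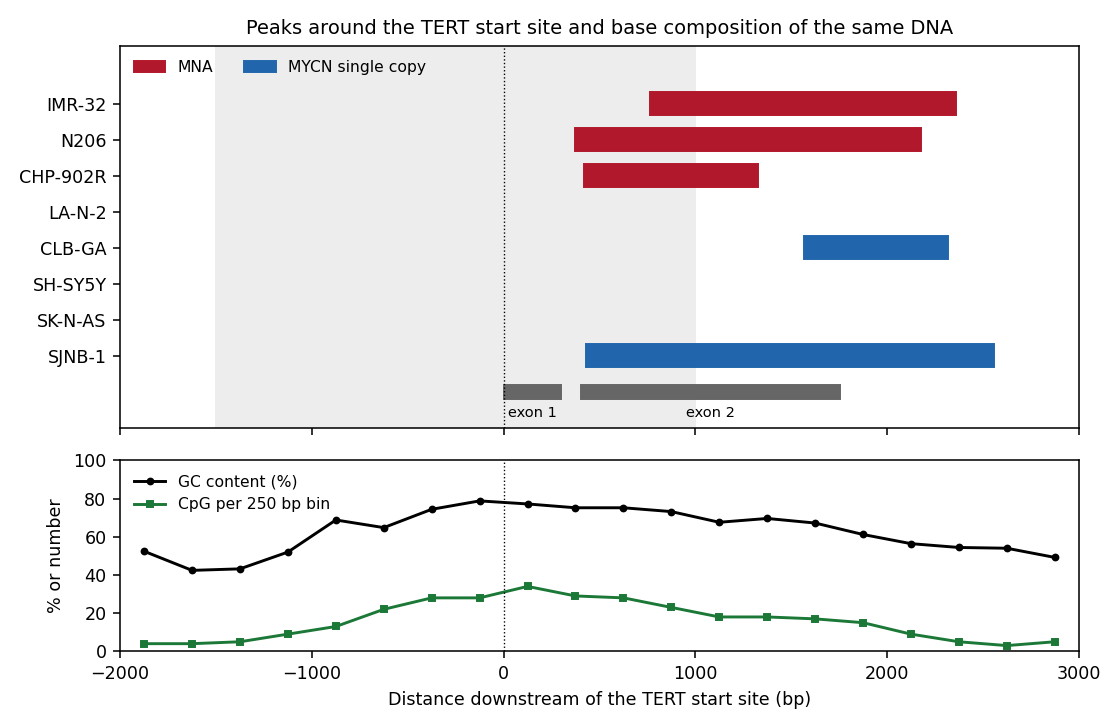
Peaks from 2000 bp upstream to 3000 bp downstream of the *TERT* TSS in each line (top, promoter window shaded, exons in grey) and GC content in % and number of CpG per 250 bp bin of the same DNA (bottom). Peaks of N206, CHP-902R, SJNB-1 and IMR-32 begin 375 to 764 bp downstream, the CLB-GA peak at 1569 bp, and the TSS itself has none in any line.

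Upstream of start sites as GC-rich as that of *TERT*, peaks were less frequent than at middle GC content, as a description over genes. Of 6357 protein-coding genes with 50% to 60% GC in the 500 bp upstream, a median over the 8 lines of 6.65% had a peak there. The median was 3.59% for the 864 genes with 75% to 80% GC, the class of *TERT*. A peak in at least 1 line was present in 16.3% of this class and in 24.4% of the 50% to 60% class. The 4808 genes under 50% GC were similarly low, with a median of 3.64% and 15.4% in at least 1 line. Lack of a peak in every line was thus the common case. Of the other members, *SLC6A3* (77.0% GC), *CLPTM1L* (65.0% GC) and *SLC6A18* (54.2% GC) were also without a peak in this stretch in every line. *LPCAT1* (76.0% GC) had one in 3 lines and *SLC6A19* (68.2% GC) in 2. The plot by GC class shows the range over the lines. Base composition also affects capture and amplification, and its part in the missing *TERT* peak was not tested.

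**Figure D3:**
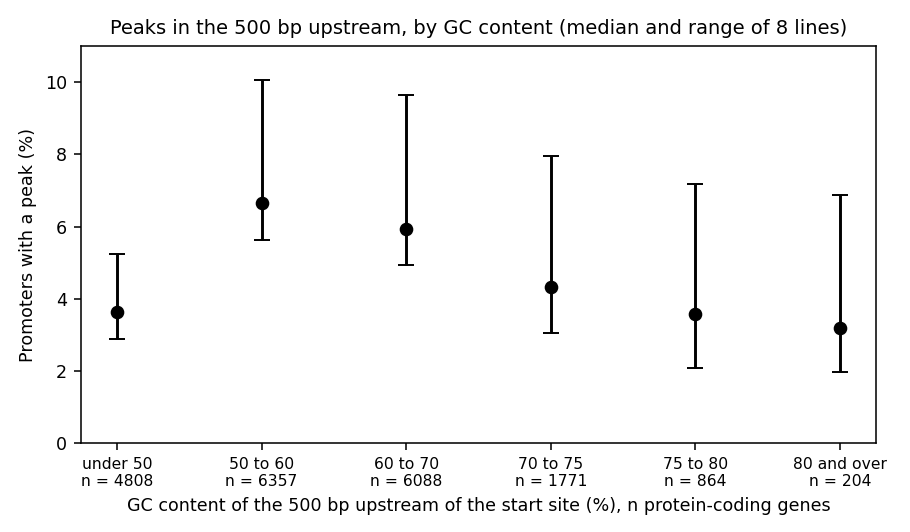
Share of protein-coding genes with a peak in the 500 bp upstream of the main TSS (vertical axis, %) by the GC content of that DNA (horizontal axis, with the number of genes), as median and range of the 8 lines. The median is highest at 6.65% for 50% to 60% GC and 3.19% at 80% GC and over.

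Counting every TSS, *TERT* had a promoter peak in IMR-32, N206, CHP-902R and LA-N-2 of the MNA lines and in SJNB-1 of the single copy lines. A promoter peak was thus seen in 4 of 4 MNA and in 1 of 4 single copy lines, which made *TERT* one of the 15.2% of all genes, and of the 30.4% of protein-coding genes, with a promoter peak in 5 or more lines. Over all genes, a promoter peak was present in 25.0% in IMR-32, 22% in N206, 23.7% in CHP-902R and 24.9% in LA-N-2, and in 19.9% in SJNB-1, 20.6% in SK-N-AS, 23.3% in SH-SY5Y and 21.2% in CLB-GA. The groups did not differ past the threshold (two-sided Fisher's exact test, p = 0.143, adjusted p = 1 over 35865 genes). No gene of the genome passed the adjusted Fisher's exact test, whereas 127 passed without adjustment, and 0.262% of the genes tested had a peak in all MNA lines and no single copy line. The LA-N-2 peak lay at an internal TSS, 11061 to 12240 bp downstream of the main one, in an intron. With the main TSS alone, the counts were 3 and 1 (p = 0.486 in the same exact test). SJNB-1 was the 1 single copy line with a promoter peak, so that leaving it out sets every MNA line against none of 3 single copy lines by construction, with an adjusted p of 1 in the same exact test. When peaks scoring below 100 were left out, no line had a *TERT* promoter peak. In all, 51 genes, *TERT* among them, had a promoter peak in exactly these lines.

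Within the gene body, *TERT* had 19 peaks in 7 lines, of which 16 touched an exon. Peaks covered 12.5% of the gene body in IMR-32, 9.83% in N206, 8.10% in CHP-902R and 7.0% in LA-N-2. In the single copy lines they covered 12.1% in SJNB-1, 5.12% in CLB-GA, 4.30% in SK-N-AS and 0% in SH-SY5Y. SJNB-1 lay among the MNA lines and the other single copy lines below all of them, so the groups overlapped through SJNB-1. The means were 9.36% ± 2.40 in MNA lines and 5.38% ± 5.01 in single copy lines (SD, n = 4 each), a difference of 3.98 percentage points (two-sided exact permutation test, p = 0.2, adjusted p = 1). Leaving out SJNB-1, the line through which the groups overlapped, gave a difference of 6.22 points (exact permutation test, adjusted p = 1). With peaks scoring below 100 left out, the difference over all lines was −1.75 points, and only SJNB-1 still had *TERT* peaks. Over all 37205 genes with a body peak, 1.70% had non-overlapping groups with MNA higher and 0.339% with single copy higher. In the promoter window of the main TSS, cover was 14.4% ± 11.9 in MNA and 5.73% ± 11.5 in single copy lines (SD, n = 4 each, exact permutation p = 0.257).

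Peaks in the *TERT* body fell on a few places. Besides exon 2, a region at chr5:1258334-1260836 around exon 12 had peaks in CHP-902R, LA-N-2, SK-N-AS and SJNB-1. All 4 shared 540 bp there, from 34422 to 34961 bp downstream of the TSS, and the SJNB-1 peak had a score of 124.34, the highest at *TERT*. The last exons of the gene, 15 and 16, had a peak in IMR-32 (score 98.5) and SJNB-1 (score 100.94), and LA-N-2 had one in exon 16. Exon 7 was covered in IMR-32 and CLB-GA. N206 alone had a peak over exons 4 to 6, and SK-N-AS alone one in the intron 5682 to 6384 bp downstream. The pattern therefore differed from line to line: SJNB-1 had the exon 2, exon 12 and last-exon regions, whereas SK-N-AS had only the exon 12 region of these. The median CpG content of the *TERT* peaks was 4.57 per 100 bp, against 3.90 over the *TERT* body and 2.93 over the whole locus. Exons were covered to 24.0% ± 21.1 and introns to 5.59% ± 2.74 (SD, n = 8 lines), and exon cover exceeded intron cover in every line with a peak but SK-N-AS.

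The *TERT* body was covered more than the genome in 7 of 8 lines, at 7.37% ± 4.21 against 1.77% ± 0.265 (SD, n = 8 lines). The difference was 5.59 percentage points (p = 0.0156, exact permutation of signs over the lines, two-sided, smallest possible p 0.0078). SH-SY5Y, with no *TERT* peak, was the exception. Against the bodies of protein-coding genes, at 2.29% ± 0.348, the difference was 5.08 points (same exact test, p = 0.0234). The first 2 Mb of chromosome 5 were covered to 5.12% ± 0.936. Against them the difference was 2.25 points with 6 of 8 lines higher (exact p = 0.156). That background holds *TERT* itself and was chosen after seeing the data. The excess did not pass the threshold there, which does not show that there is none. With peaks scoring below 100 left out, the difference from the genome was 0.521 points (exact p = 1), and only SJNB-1 still had *TERT* peaks. Of the other members, mean body cover was 11.1% for *SLC6A19* and 8.34% for *CLPTM1L*, above *TERT*, and lowest for *SLC6A3* at 4.11%. They were not tested against the genome. The *TERT* body held 3.90 CpG per 100 bp, against 2.55 (*SLC6A3*) to 3.24 (*SLC6A19*) in the other members. The backgrounds were not matched for CpG content. Against its own promoter window, the *TERT* body was 2.71 points lower (exact p = 0.438), and with the window shortened to 500 bp downstream 5.63 points higher in 7 of 8 lines (exact p = 0.0156).

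*SLC6A19*, the neutral amino acid transporter B0AT1, was the member with a body peak in all 8 lines. Its body cover was 6.08% in IMR-32, 18.0% in N206, 17.7% in CHP-902R, 7.27% in LA-N-2, 6.47% in CLB-GA, 8.09% in SK-N-AS, 14.7% in SH-SY5Y and 10.6% in SJNB-1. Every line had a peak in the last exon, which carries the 3′ UTR, at chr5:1221845-1223387. The 8 lines shared 255 bp of it, with scores from 67.1 in CLB-GA to 232.58 in SK-N-AS. A second region at chr5:1210448-1213015 had peaks in all lines but IMR-32 and SJNB-1, with scores from 114.3 to 159.38. These lay over exon 4 and the intron before it, and the N206 peak also covered exon 3. At the start of the gene, N206 and SJNB-1 had a peak over the TSS and SH-SY5Y one from 131 bp downstream, whereas the other 5 lines had none. *SLC6A18*, its neighbour and a related transporter, had no promoter peak in any line, and body peaks in all lines but N206 and SK-N-AS. Its body cover ran from 0% to 10.6%, and its peaks had scores of 52.99 to 73.45.

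*CLPTM1L*, whose main TSS lies 50031 bp upstream of that of *TERT*, had a promoter peak in 6 lines by its many TSS but only in N206 by the main one. That N206 peak ended 1162 bp upstream of the TSS, so that no line had a peak over the start itself. Peaks covered 16.8% of its body in CLB-GA, 14.7% in SJNB-1, 9.95% in N206, 8.45% in SK-N-AS, 8.34% in LA-N-2, 6.59% in IMR-32, 1.93% in CHP-902R and 0% in SH-SY5Y. The region most often covered, chr5:1323133-1325882 around exons 10 to 12, had peaks in IMR-32, N206, CLB-GA and SK-N-AS. SH-SY5Y had no peak in *TERT* or *CLPTM1L*, and its longest stretch without a peak, 103071 bp, spanned both genes.

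*SLC6A3*, the dopamine transporter of catecholamine neurons, had a promoter peak in 6 lines by any TSS. By its main TSS only IMR-32 and SH-SY5Y had one, starting 529 and 587 bp downstream, so that here too the start site was free while nearby intronic DNA was covered. Body cover was 6.39% in IMR-32, 6.25% in N206, 7.10% in CHP-902R and 0.501% in LA-N-2, and 5.63% in SJNB-1, 3.56% in SH-SY5Y, 3.49% in SK-N-AS and 0% in CLB-GA. LA-N-2 lay far below the other MNA lines, although it had the most peaks on chromosome 5. Exon 13 was covered in N206, CHP-902R, SK-N-AS and SJNB-1, and exon 5 in IMR-32, SH-SY5Y and SJNB-1. In CLB-GA a stretch of 177389 bp without a peak held all of *SLC6A3* and the body of *LPCAT1*.

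*LPCAT1* was the member with a promoter peak in all 8 lines, which held for 2.73% of all genes and 6.13% of protein-coding genes. In 7 lines the peak lay upstream of the main TSS, in the region chr5:1524511-1525934, with scores from 54.92 in N206 to 161.45 in LA-N-2. These peaks ended 436 to 705 bp before the TSS and shared the 386 bp that contain the printed *LPCAT1* stretch. SH-SY5Y had no peak there and was counted through an internal TSS near the end of the gene. A region at chr5:1463189-1468999, over the last exons 13 and 14, had peaks in all lines but IMR-32 and CLB-GA, the longest of 5687 bp in LA-N-2. Body cover was 14.8% in LA-N-2, 10.1% in N206, 8.49% in SH-SY5Y, 5.57% in SJNB-1, 6.17% in SK-N-AS, 3.69% in CHP-902R, 2.38% in IMR-32 and 0% in CLB-GA. A region in the first intron, chr5:1517384-1519609, had peaks in IMR-32, N206 and LA-N-2 only. When the peaks of all lines were merged into 56 regions of the locus, it was 1 of 9 with peaks in 3 lines. Its split between the *MYCN* groups was not tested.

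In none of the 6 members were the *MYCN* groups apart, and the groups overlapped in body cover for each. The differences between MNA and single copy means ran from −3.27 points for *CLPTM1L* (6.71% ± 3.46 against 9.98% ± 7.54, SD, n = 4 each) to 3.98 points for *TERT*. Exact permutation p-values ran from 0.2 for *TERT* to 0.943 for *SLC6A18*, with an adjusted p of 1 for each. With 4 lines against 4 the smallest exact p is 0.0286, and no gene of the genome passed the adjusted test, although 2.04% of genes had p at this minimum without adjustment. For promoter peaks, *LPCAT1*, *CLPTM1L*, *SLC6A3* and *SLC6A18* had equal numbers of MNA and single copy lines, and *SLC6A19* had 1 against 2. The plot of body cover shows the spread of the 8 lines for each gene.

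**Figure D4:**
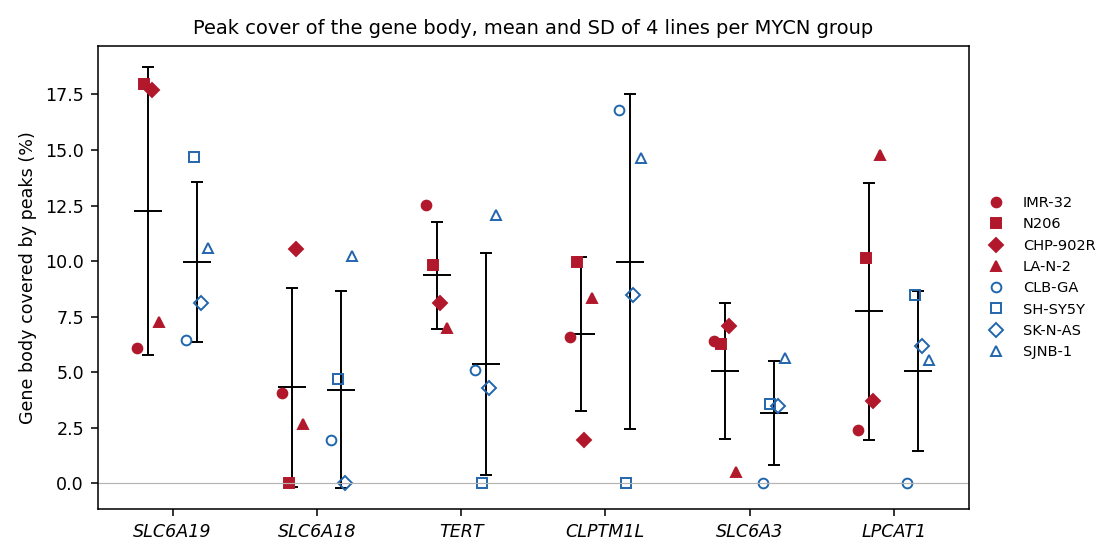
Percentage of the gene body covered by peaks (vertical axis) for each member in the 4 MNA lines (filled red) and the 4 *MYCN* single copy lines (open blue), with mean and SD of each group in black. The groups overlap for every gene, and in *TERT* the single copy line SJNB-1 (12.1%) lies among the MNA lines (7.0% to 12.5%).

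Genes with related roles were set beside the members by the number of lines with a promoter peak, for which the median over all protein-coding genes was 2 lines. Of the members, 5 of 6 had a promoter peak in at least 1 line and 4 of 6 in at least 4 lines, against 74.1% and 39.6% of protein-coding genes (55.6% of all genes had one in at least 1 line). These counts use every TSS. At the main TSS, *CLPTM1L* had a promoter peak only in N206 and *SLC6A3* only in IMR-32 and SH-SY5Y. Of 22 genes of telomerase and telomere upkeep, 19 had one in at least 1 line and 9 in at least 4 lines, with a median of 3 lines. Those with the most lines were *TEP1*, a telomerase-associated protein, and *WRAP53*, which brings telomerase to Cajal bodies, with 7 lines each. *RTEL1*, a helicase that resolves telomere loops, and *ACD*, the shelterin member that recruits telomerase, followed with 6 lines, and *TINF2*, another shelterin member, with 5. The telomerase RNA *TERC* had a promoter peak in 4 lines, 2 of each *MYCN* group. None of the 22 genes separated the *MYCN* groups. Few genes did, with 0.262% of all genes tested having peaks in all MNA lines only and 0.0920% in all single copy lines only.

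Among 16 other transporters of the SLC6 family, 14 had a promoter peak in at least 1 line and 8 in at least 4. *SLC6A12*, the betaine transporter, had one in all 8 lines. *SLC6A2*, the noradrenaline transporter and a marker of the sympathetic lineage from which NB arises, had one in every line but LA-N-2, and *SLC6A15*, a neutral amino acid transporter, in every line but SH-SY5Y. *SLC6A16* and *SLC6A6*, the taurine transporter, had one in 5 lines each. *SLC6A6* showed the same lines as *TERT*, all MNA lines and SJNB-1. The paralogs *LPCAT2*, *LPCAT4*, *LPCAT3* and *CLPTM1* had a promoter peak in 5, 4, 3 and 3 lines.

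Of 20 other genes at the end of 5p, 16 had a promoter peak in at least 1 line and 7 in at least 4, with a median of 1.5 lines. *BRD9*, a subunit of a chromatin remodelling complex, and *TRIP13*, a checkpoint ATPase, had one in all 8 lines. Their TSS lie close together, so they can share peaks. *EXOC3*, of the exocyst, had one in 7 lines, and *AHRR*, a repressor of the aryl hydrocarbon receptor, and *CEP72*, a centrosomal protein, in 6 lines each. *ZDHHC11*, a palmitoyltransferase, was the 1 listed gene whose promoter peak separated the groups, present in all single copy lines and no MNA line (Fisher's exact test, p = 0.0286, adjusted p = 1). Over all genes tested, 0.0920% showed this pattern. *ZDHHC11* has a near-identical copy, *ZDHHC11B*, next to it, and whether reads were split between them was not tested. Body cover was averaged over the 8 lines for each gene. The median of these means over genes was 5.62% in this list and 6.88% for the members, against 2.59% over protein-coding genes. The bar plot gives the number of lines for each list.

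**Figure D5:**
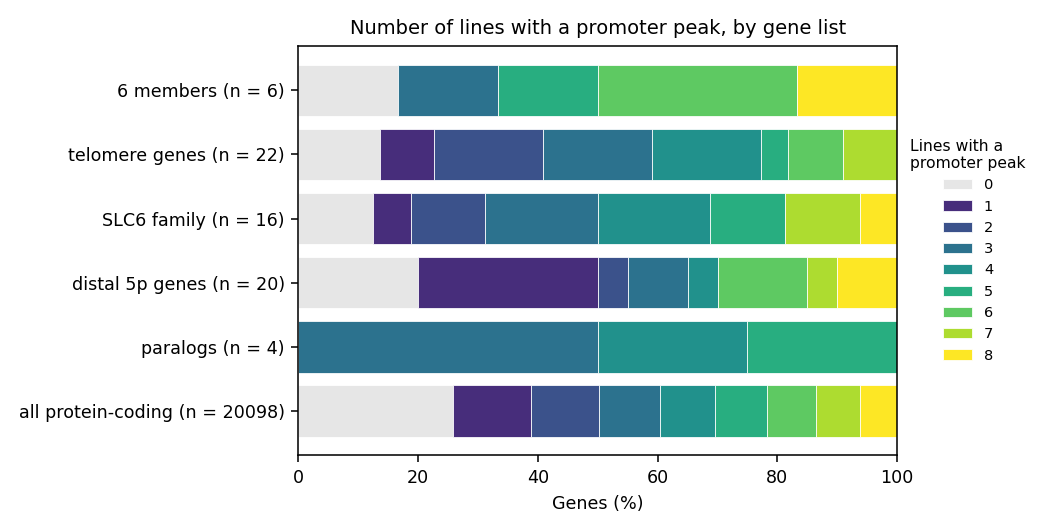
Share of genes (horizontal axis, %) by the number of lines with a promoter peak at any TSS (colours, 0 to 8) for the members, the 4 lists of related genes and all protein-coding genes. The share without a promoter peak in any line is 3 of 22 for the telomere genes and 4 of 20 for the genes of distal 5p.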

How the data were processed

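The 8 NB cell lines were each profiled once by MBD-seq. Paired-end reads of 45 bp were mapped by the authors with Bowtie 0.12.7 on GRCh37, and MACS was run on each line. A control library is not given in the sources used here. The deposited lists give positions and a score for each peak, which rises as the p-value falls. Cover is the percentage of a gene body, window or genome (non-N bases of chromosomes 1 to 22 and X) inside peaks.

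*MYCN* groups were compared with two-sided Fisher's exact tests on promoter peaks and two-sided exact permutation tests on cover (70 splits), with Benjamini-Hochberg adjustment over all genes with a peak, and *TERT* was compared with other DNA by an exact permutation of signs over the lines. Python 3.11.15, numpy 2.4.6, pandas 2.3.3, scipy 1.17.1, numba 0.67.0 and matplotlib 3.10.9 were used, with tests checked on simulated data. The members, gene lists and tests were chosen with earlier results of these data known. Up to 5 genes per list were named by number of lines with a promoter peak and then by score, with any that separated the groups, and *TERC* was named after its values were seen. As alternatives, peaks scoring below 100 were left out, or the tests used the top 70816 peaks of each line, peak midpoints, a window to 500 bp downstream, the main TSS only, unique 45 bp stretches, other backgrounds for the genome and each line left out. The first 2 Mb of chromosome 5 as background was chosen after seeing the data.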

Additional observations from a re-analysis of the deposited data

Results flagged for a closer look

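Among the 20 sets of 4 lines examined for a line far from the rest, of which chance would single out about 1 in 20, 2 stood out. *SLC6A3* body cover was 0.501% in LA-N-2, against 6.25%, 6.39% and 7.10% in the other MNA lines. Peaks covered 22.9% of the *TERT* promoter window in SJNB-1, whereas CLB-GA, SH-SY5Y and SK-N-AS had none in it. With 3 lines at 0, any cover in the fourth stands out in this way. Outside these 20 sets, the promoter window of the main TSS had the same pattern of 1 line against 3 at 0 for *SLC6A19* (33.5% in N206), *CLPTM1L* (13.6% in N206) and *SLC6A3* (18.9% in IMR-32 among MNA and 16.6% in SH-SY5Y among single copy lines).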

How the results depend on the processing

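No pairing of MNA with single copy lines was possible because the labels give no replicate numbers and each line is a separate culture. The tests of the *TERT* body against other DNA were paired within each line. When peaks scoring below 100 were left out, the difference between MNA and single copy lines in *TERT* body cover was −1.75 points, in *CLPTM1L* body cover 1.59, in *LPCAT1* body cover −0.894 and in the share of lines with an *SLC6A19* promoter peak 25 percentage points. The *TERT* body then exceeded its promoter window by 0.876 points and the genome by 0.521. At this cutoff only SJNB-1 still had peaks in the *TERT* body, so its remaining cover came from that line alone. Peaks in the *CLPTM1L* and *LPCAT1* bodies were left in LA-N-2 and SK-N-AS only, and the *SLC6A19* promoter peak in N206 only. With every list cut to 70816 peaks, the difference was −1.29 points for *SLC6A18* body cover and −2.56 for *LPCAT1*. With the window to 500 bp, the *TERT* body exceeded it by 5.63 points, and against the first 2 Mb of chromosome 5 by 2.25 points.

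Leaving out 1 line at a time gave group differences of 2.19 to 6.22 points for *TERT* body cover (highest without SJNB-1), 66.7 to 100 percentage points for the *TERT* promoter peak and −1.98 to 2.11 points for *SLC6A18* body cover, which was −0.645 without CLB-GA, −1.30 without SK-N-AS and −1.98 without CHP-902R. The ranges of body cover were −6.60 to −0.999 points for *CLPTM1L*, 0.342 to 4.47 for *LPCAT1*, 0.397 to 4.36 for *SLC6A19* and 0.834 to 3.41 for *SLC6A3*, and 5.16 to 14.4 for the *TERT* promoter window. The number of genes whose promoter peak separated the groups was 127, 27 at a score of at least 100 and 237 to 322 with a line left out. For body cover without overlap it was 760, 218 and 1257 to 1777, since fewer lines separate more easily. The cause of the other changes was not tested. *TERT* body cover stayed above the genome with every line left out, by 4.87 to 6.66 points. Depth per line is unknown, which limits what a missing peak shows.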
